A study of Saccharomyces cerevisiae with 14 samples.

Results

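The 33 genes described here encode enzymes, and partner subunits of enzymes, that modify the bases and riboses of transfer RNA in Saccharomyces cerevisiae. They were chosen by name, for these activities, but with earlier results of these data known. All 33 had a probe set of their own among the 5449 budding yeast genes measured, PUS3 under its other name DEG1. By activity there were 16 genes of methyltransferases and their subunits, 5 of pseudouridine synthases, 3 of dihydrouridine synthases, 3 of adenosine deaminases, 4 of the elongator complex, and TRM12 and MOD5, which belong to none of these classes.

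Modified nucleosides are made on tRNA after transcription by RNA polymerase III. Those in the body of the molecule help it fold and keep it stable, while those in the anticodon loop, above all at the wobble base and at the base next to the anticodon, tune decoding. Rapamycin inhibits the TOR complex 1 kinase, which in growing yeast keeps up the supply of ribosomes and tRNA.

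Transcript levels were measured in 14 samples of YSBN6, a wild-type strain. The cultures grew in fermentors run as a batch, at 30 °C and pH 5, and their minimal medium held glutamine (1 g/L) as well as glucose (20 g/L). Arrays covered the steady state 10 min before a pulse of 400 µg/L rapamycin, and 7 and 24 min after it, in 3 separate fermentations named BY005, BY006 and BY007. Only BY005 was also sampled at 3, 10, 14, 56 and 120 min, with 1 array each. No culture without rapamycin was followed over the same hours, so effects of time in batch culture and of rapamycin cannot be told apart.

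Values are log2 of the deposited RMA intensities, and errors after ± are standard errors of the limma fit unless named as SD. RMA makes the arrays' distributions alike, so each value is relative to the other transcripts of its array. Total RNA of the whole culture was used, so a fall in every cell and a larger fall in a part of the cells cannot be told apart. The median gene stood at 10.71 at steady state. Probe sets of the fission yeast Schizosaccharomyces pombe, which served as the background, had a 95th percentile of 5.77. Averaged over the 14 arrays, the 33 genes ranged from 8.66 (DUS3) to 11.57 (NCL1). Such levels depend on each probe set's affinity, so they do not rank the genes by transcript number. The SD over the 14 arrays ran from 0.14 for MOD5 to 2.21 for TRM11.

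At 24 min nearly the whole set had fallen. In the comparison of 24 min with steady state, 32 of 33 genes were called lower and 0 higher (limma, Benjamini-Hochberg adjusted p under 0.05, 3 against 3 arrays), against 30.4% of all genes called lower and 44.5% called higher. At an unadjusted p under 0.05 the counts were again 32 and 0, against 31.1% of all genes lower and 45.4% higher. The median change of the set was -1.97, against 0.11 over all genes. Because the set was chosen with earlier results of these data known, these shares describe it and do not test it. In 32 of the 33 genes every array at 24 min lay below every steady-state array, which held for 32% of all genes. The remaining gene was MOD5. The median change was -1.84 in BY005, -1.97 in BY006 and -2.04 in BY007. Scaling the arrays on the hybridisation controls raised the median of all genes by 1.01 at 24 min. Such scaling shifts every gene of an array by the same amount, so the distance between the set and all genes, -2.08, could not change. It turned the small falls of TAD1, PUS6, TRM12 and ELP4 to positive values. Among the 3 steady-state arrays alone the mean log2 intensity of those controls was 11.76, 11.14 and 9.56 in BY005, BY006 and BY007. At 24 min it was 10.34, 8.62 and 10.46. The scaling thus raised the changes at 24 min in BY005 and BY006 and lowered them in BY007.

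**Figure D1:**
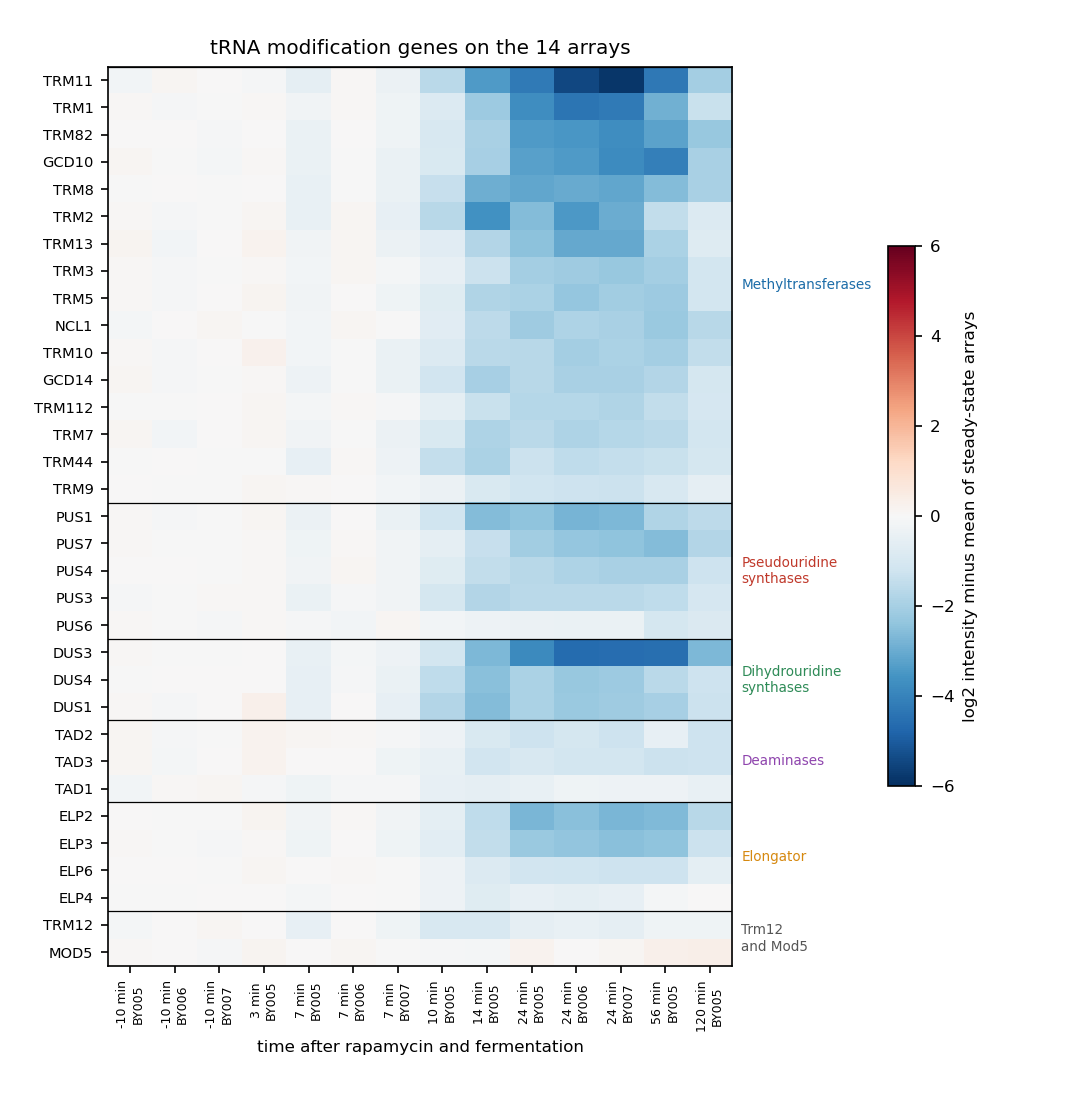
Each row is 1 of the 33 genes, grouped by class and ordered by its change at 24 min, and each column is 1 of the 14 arrays in order of time. Colour gives the log2 intensity minus the gene's mean over the 3 steady-state arrays. Most rows turn blue between 10 and 24 min, many are paler again at 120 min, TRM11 is darkest at 24 min, and MOD5 stays near 0 on all arrays.

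The methyltransferase genes, all 16 of them called lower at 24 min, had a median of -2.14. The largest change of all 33 genes was that of TRM11 (YOL124C), the catalytic subunit that methylates a guanosine of the tRNA body. TRM11 stood at 6.70, 5.47 and 5.10 at 24 min in BY005, BY006 and BY007, against 10.78, 11.07 and 10.95 at steady state. The groups lay far apart, and in BY006 and BY007 the gene ended below the background percentile. With these 2 arrays set to that percentile, TRM11 was at least 28.9-fold lower (fitted change without that floor -5.17 ± 0.36, adjusted p = 2.5e-06). The adjacent gene on the chromosome, TRM13 (YOL125W), encodes a ribose methyltransferase of the acceptor stem. TRM13 stood at 7.22, 6.65 and 6.66 at 24 min, against 9.87, 9.52 and 9.72 at steady state, 7.26-fold lower (-2.86 ± 0.18, adjusted p = 1.4e-06).

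TRM1 (YDR120C), which dimethylates a guanosine at the junction of the D and anticodon stems, had the next largest change of the methyltransferase genes. Its values were 7.96, 7.32 and 7.46 at 24 min, against 11.77, 11.61 and 11.67 at steady state, 17.2-fold lower (-4.10 ± 0.16, adjusted p = 1.3e-07). TRM2, which makes the ribothymidine of the T loop, read 8.62, 7.80 and 8.24 at 24 min, against 11.30, 11.15 and 11.22 at steady state (-3.01 ± 0.21, adjusted p = 2.7e-06). In both genes the arrays of the 2 times did not overlap.

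The smallest fall of the class was that of TRM9, which finishes the modified wobble uridine begun by elongator. TRM9 stood at 9.24, 9.19 and 9.15 at 24 min, against 10.48, 10.40 and 10.44 at steady state, 2.38-fold lower (-1.25 ± 0.07, adjusted p = 5.5e-07). Between these ends lay TRM3 (-2.17) and TRM44 (-1.42), both ribose methyltransferases, TRM10 (-1.86) and TRM5 (-2.11), which methylate guanosines, TRM7 (-1.73), a ribose methyltransferase of the anticodon loop, and NCL1 (-1.97), which methylates cytosines. All 6 were called lower.

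All 5 pseudouridine synthase genes of the set were called lower at 24 min, with a median of -1.82. Other PUS genes, counted below with the other genes of tRNA modification, fell less or not at all (PUS2 -1.03, PUS9 -0.53, PUS5 0.27). These enzymes turn uridine into its C-linked isomer. PUS1 changed most. It acts at several sites of nuclear tRNA and stood at 8.74, 8.35 and 8.45 at 24 min, against 11.21, 11.10 and 11.15 at steady state, 6.25-fold lower (-2.64 ± 0.13, adjusted p = 3.6e-07). PUS7, which also acts on the U2 spliceosomal RNA, was 4.82-fold lower, PUS4, of the T loop, 3.54-fold and PUS3, of the anticodon stem-loop, 3.08-fold. PUS6, which modifies a single site in cytosolic and mitochondrial tRNA, had the smallest fall of the 5 in the set. Its values were 9.45, 9.42 and 9.44 at 24 min, against 9.88, 9.80 and 9.77 at steady state (-0.38 ± 0.07, adjusted p = 0.001; 0.63 with hybridisation-control scaling).

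The 3 dihydrouridine synthase genes were called lower as well, with a median of -2.11. Their products reduce uridines, mostly in the D loop. DUS3, whose product acts in the variable loop, read 6.62, 5.82 and 5.88 at 24 min, against 10.49, 10.40 and 10.43 at steady state, 20.2-fold lower (-4.34 ± 0.19, adjusted p = 2.2e-07). In BY006 and BY007 it ended just above the background percentile, where a fall may be understated. DUS1 was 4.23-fold lower (-2.08 ± 0.15, adjusted p = 2.8e-06) and DUS4 4.33-fold lower (-2.11 ± 0.13, adjusted p = 9.9e-07). DUS1 read 8.83, 8.51 and 8.57 at 24 min, against 10.76, 10.62 and 10.75 at steady state.

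Falls of the deaminase genes were smaller, with a median of -1.07. TAD2 and TAD3 encode the catalytic and the partner subunit of the enzyme that makes inosine at the wobble position. TAD2 stood at 9.10, 9.29 and 9.07 at 24 min, against 10.43, 10.27 and 10.30 at steady state (-1.18 ± 0.08, adjusted p = 1.8e-06). TAD3 stood at 8.68, 8.56 and 8.53 at 24 min, against 9.75, 9.55 and 9.67 at steady state (-1.07 ± 0.09, adjusted p = 6.2e-06). TAD1, which deaminates the adenosine next to the anticodon of alanine tRNA, read 10.36, 10.54 and 10.53 at 24 min, against 10.65, 10.88 and 10.94 at steady state (-0.34 ± 0.09, adjusted p = 0.0099). Its groups did not overlap, but the change was 1.27-fold and turned to 0.67 with hybridisation-control scaling.

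The 4 elongator genes split by size. ELP3 encodes the catalytic subunit and ELP2 a scaffold of the core, while ELP4 and ELP6 encode subunits of the ring-shaped accessory part. Elongator starts the modification of wobble uridines. ELP2 read 9.18, 9.43 and 9.21 at 24 min, against 11.97, 11.91 and 11.93 at steady state, 6.35-fold lower (-2.67 ± 0.09, adjusted p = 7e-08). ELP3 read 9.40, 9.30 and 9.14 at 24 min, against 11.72, 11.64 and 11.57 at steady state, 5.16-fold lower (-2.37 ± 0.09, adjusted p = 1.4e-07). Both core genes fell more than the accessory pair in every fermentation.

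ELP6 was 2.3-fold lower, at 10.33, 10.26 and 10.21 at 24 min, against 11.47, 11.47 and 11.46 at steady state (-1.20 ± 0.05, adjusted p = 1.4e-07). ELP4 was 1.45-fold lower (-0.53 ± 0.05, adjusted p = 2.7e-05; 0.48 with hybridisation-control scaling). ELP4 read 10.79, 10.67 and 10.77 at 24 min, against 11.23, 11.27 and 11.32 at steady state.

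TRM12 encodes an enzyme of wybutosine synthesis in phenylalanine tRNA, and MOD5 the enzyme that adds an isopentenyl group to the adenosine next to the anticodon. TRM12 read 8.96, 9.07 and 8.97 at 24 min, against 9.37, 9.52 and 9.62 at steady state (-0.50 ± 0.12, adjusted p = 0.0039). The call was lost when the genes alone were quantile-normalized (-0.32, adjusted p = 0.062). MOD5 read 9.55, 9.35 and 9.46 at 24 min, against 9.40, 9.36 and 9.26 at steady state, and the 2 times overlapped (0.11 ± 0.07, adjusted p = 0.16). With that quantile normalization MOD5 was called higher (0.27, adjusted p = 0.0072).

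**Figure D2:**
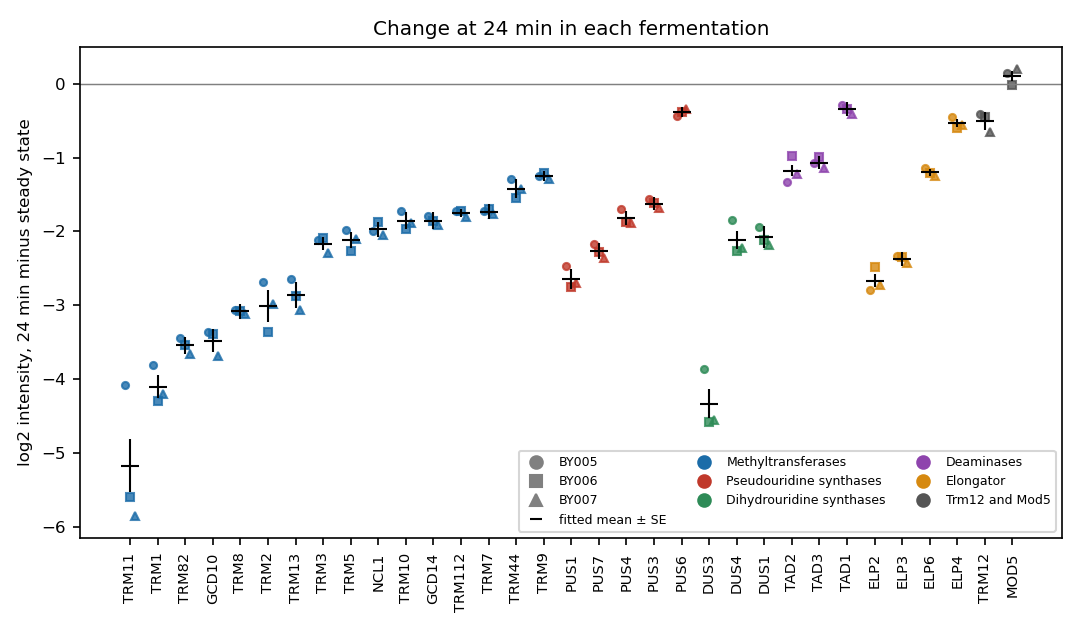
Log2 intensity at 24 min minus steady state for each of the 33 genes, with 1 symbol for each fermentation and the fitted mean ± SE as a black bar; colours mark the classes. TRM11, DUS3 and TRM1 lie lowest, all 3 fermentations lie below 0 for 32 genes, and MOD5 lies at 0.11; with hybridisation-control scaling TAD1, PUS6, TRM12 and ELP4 turn positive.

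Genes for subunits of one enzyme did not always change alike. For 7 pairs the difference between the partners' log2 changes at 24 min was taken in each fermentation, and an exact two-sided permutation test compared the partners' log ratio over the 3 arrays at 24 min with that over the 3 at steady state. With 3 against 3 arrays the smallest p this test can give is 0.1, and 6 of the 7 pairs reached it (0.117 after Benjamini-Hochberg adjustment over the 7), so none could pass 0.05.

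GCD10 and GCD14 encode the binding and the catalytic subunit of the enzyme that methylates an adenosine of the T loop, which initiator tRNA needs to stay stable. GCD10 stood at 8.16, 7.99 and 7.62 at 24 min, against 11.52, 11.38 and 11.31 at steady state, 11.2-fold lower (-3.48 ± 0.15, adjusted p = 2.1e-07). GCD14 stood at 8.98, 8.72 and 8.73 at 24 min, against 10.77, 10.58 and 10.64 at steady state, 3.61-fold lower (-1.85 ± 0.11, adjusted p = 1.1e-06). The change of GCD10 exceeded that of GCD14 by -1.57, -1.53 and -1.78 in BY005, BY006 and BY007.

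TRM8 and TRM82 form the enzyme that makes the positively charged methylguanosine of the variable loop, TRM8 being catalytic. TRM82 stood at 8.68, 8.59 and 8.36 at 24 min, against 12.12, 12.13 and 12.02 at steady state, 11.7-fold lower (-3.54 ± 0.11, adjusted p = 6.4e-08). TRM8 stood at 7.73, 7.80 and 7.72 at 24 min, against 10.79, 10.87 and 10.83 at steady state, 8.47-fold lower (-3.08 ± 0.10, adjusted p = 7e-08). The pair thus differed by -0.46 ± 0.08 (SD, n = 3; exact permutation p = 0.1, the smallest possible).

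TRM112 encodes a small activator that binds TRM9 and TRM11 and also methyltransferases of other substrates. It stood at 10.45, 10.46 and 10.39 at 24 min, against 12.18, 12.18 and 12.19 at steady state, 3.36-fold lower (-1.75 ± 0.06, adjusted p = 6.4e-08). TRM11 changed by -3.43 ± 0.93 more than TRM112 (SD, n = 3; exact permutation p = 0.1). With the 2 TRM11 arrays under the background set to its percentile, this gap was -3.10 ± 0.65 (SD, n = 3). TRM9 changed less than TRM112, by 0.50 ± 0.02 (SD, n = 3; exact permutation p = 0.1). TAD2 and TAD3 differed by -0.11 ± 0.13 (SD, n = 3; exact permutation p = 0.4), within their spread between fermentations. Of the elongator pairs, ELP3 differed from ELP4 by -1.83 ± 0.08 and ELP2 from ELP6 by -1.47 ± 0.19 (SD, n = 3; exact permutation p = 0.1 each).

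At 7 min no gene of the set passed the test. The counts at 7 min were 0 of 33 lower and 0 higher (limma, adjusted p under 0.05), against 0.0734% of all genes called lower and 0.826% higher, and 3 genes had an unadjusted p under 0.05, all lower, against 3.47% of all genes lower and 16.6% higher at that level. With the fermentation as a replicate block 5 genes of the set were at that level, against 218 of all 5449 genes lower and 1081 higher. When the genes alone were quantile-normalized the number was 13, against 496 of all genes lower and 548 higher. Those of the set were again all lower, with 0 past the adjusted threshold in either fit. The 3 were TRM8 (-0.29 ± 0.10, adjusted p = 0.16), PUS3 (-0.22 ± 0.08, adjusted p = 0.18) and DUS4 (-0.33 ± 0.13, adjusted p = 0.19). In 2 genes, DUS3 and DUS4, every array at 7 min lay below every steady-state array, which held for 5.25% of all genes. The fitted values of 30 of 33 genes were below 0, with a median of -0.15, against 0.04 over all genes.

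The fermentations differed at this time. Set against its own steady state, BY005 had a median of -0.31 with 30 of 33 genes lower, and BY007 a median of -0.27 with 31 lower, while BY006 had a median of 0.07 with 9 lower. TRM2, for example, was -0.51 in BY005, 0.17 in BY006 and -0.48 in BY007. Without the 7 min array of BY006, 7 genes were called lower, DUS1 (-0.50), DUS4 (-0.46), TRM8 (-0.43), TRM44 (-0.41), TRM12 (-0.37), GCD14 (-0.36) and PUS3 (-0.31), against 3.23% of all genes. With the other arrays of these 2 times left out in turn the count stayed 0. Hybridisation-control scaling turned the set's median at 7 min to 0.07, where that of all genes moved up by 0.22. By 24 min BY006 was no longer apart, and 33 of its 33 genes lay below its own steady state.

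**Figure D3:**
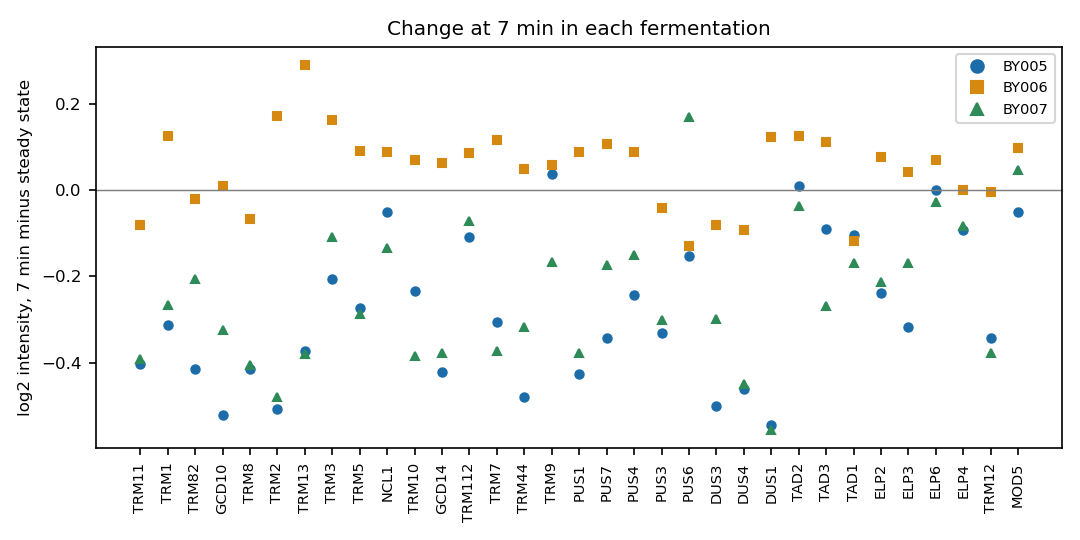
Log2 intensity at 7 min minus steady state of the same fermentation for each of the 33 genes. BY005 has a median of -0.31 and BY007 of -0.27, both mostly below 0, while points of BY006 lie around a median of 0.07.

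The step from 7 to 24 min held most of the change. In the comparison of 24 with 7 min, 30 of 33 genes were called lower and 0 higher, against 30.8% of all genes called lower and 39.5% higher. The counts were also 30 and 0 at an unadjusted p under 0.05, against 31.8% of all genes lower and 40.7% higher. In 31 genes, all but TRM12 and MOD5, every array at 24 min lay below every array at 7 min, which held for 32.2% of all genes. TAD1, TRM12 and MOD5 did not pass. With the fermentation as a replicate block TAD1 (-0.21, adjusted p = 0.0035) and TRM12 (-0.26, adjusted p = 0.034) were called lower too, which made 32. The single arrays of BY005 filled the interval. At 3 min 0 of the 33 genes were called by limma, against 0% of all genes, and 0 had an unadjusted p under 0.05, against 5.27% of all genes; the median was 0.08. At 10 min 29 of 33 were called lower and 0 higher, against 15.5% and 26.6% of all genes, with a median of -0.74, and TRM13, PUS6, TAD2 and MOD5 did not pass. At 14 min 32 were called lower and 0 higher, against 28.2% and 27.3%, with a median of -1.64, and MOD5 did not pass. Times with 1 array have no replicate check of their own, since their spread was taken from the replicated times.

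The time of the lowest value in BY005 differed between genes. It was 14 min for 12 genes, 24 min for 8, 56 min for 12 and 120 min for TAD2. Among those lowest at 14 min was TRM2, at -3.69 against its own steady state in BY005, and it had regained 2.77 log2 units by 120 min. DUS1 and DUS4 were lowest at 14 min too (-2.66 and -2.46), whereas DUS3 went on to -4.59 at 56 min. GCD14 was lowest at 14 min (-2.12), its partner GCD10 at 56 min (-4.22). Comparing 24 with 14 min, a comparison added after the courses were seen, 13 genes were called lower, against 6.99% of all genes, and 0 higher (4 at an unadjusted p under 0.05, 1 with the replicate block), against 14.1%. The 13 were TRM1 (-1.90), TRM3, TRM9, TRM11 (-1.79), TRM13, TRM82 (-1.58), TRM112, GCD10 (-1.49), PUS7, DUS3 (-1.66), ELP2 (-1.14), ELP3 and ELP6. The rise of TRM2 from its lowest array did not pass in that comparison (0.60 ± 0.30, adjusted p = 0.19).

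**Figure D4:**
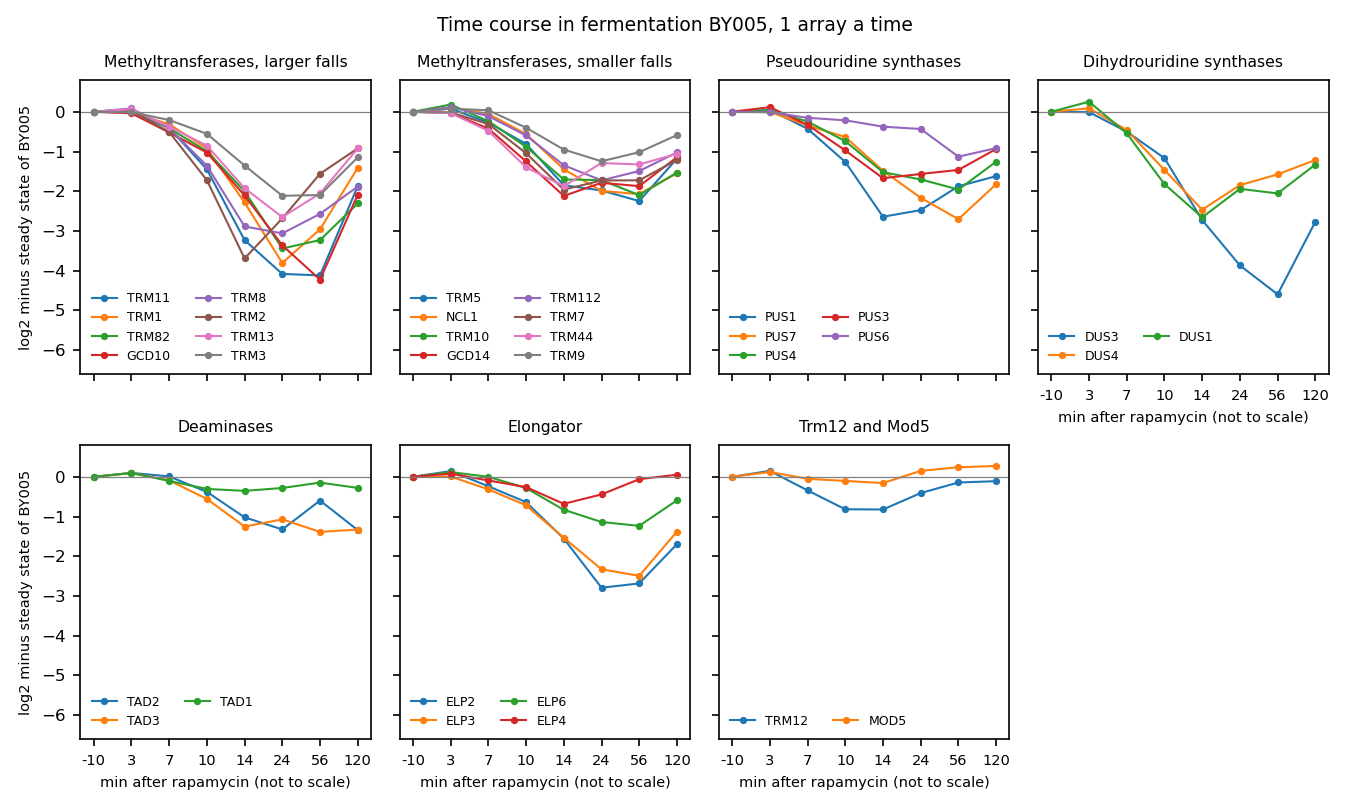
Log2 intensity minus the steady-state array of BY005 at each time, with 1 line for each gene and 1 array a time; the time axis is in order but not to scale. Lines fall from 7 min on, TRM2, DUS1 and DUS4 turn after 14 min, and DUS3 and GCD10 reach their lowest point at 56 min.

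By 120 min, though not yet at 56 min, the set had come part of the way back. Within BY005 its median against its own steady state was -1.84 at 24 min, -1.87 at 56 min and -1.21 at 120 min. At 56 min 29 genes were called lower than at steady state, against 25.7% of all genes, with a median of -1.81. MOD5 was called higher (0.30, adjusted p = 0.021), against 45.3%. This last call was lost with the fermentation as a replicate block (adjusted p = 0.059) and without the steady-state array of BY007. At 120 min 30 were called lower, against 25.3%, and 1 higher, MOD5 (0.33 ± 0.10, adjusted p = 0.014), against 41.4%, with a median of -1.22. ELP4 (0.01, adjusted p = 0.93) and TRM12 (-0.24, adjusted p = 0.22) did not pass at 120 min.

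From 24 to 56 min 8 genes were called higher, TRM1, TRM2, TRM8, TRM13, TRM112, PUS1, TAD2 and ELP4, against 21.6% of all genes, and 1 lower, PUS6, against 11%. Without the 24 min array of BY007 the count was 5 higher and 2 lower. From 24 to 120 min 24 genes were called higher, against 28.4% of all genes, and 1 lower, against 18.2%, and the median was 0.72. The largest fitted rises were those of TRM11 (3.15 ± 0.51, adjusted p = 0.0014), TRM1 (2.78 ± 0.23, adjusted p = 3.3e-05) and TRM2 (2.16 ± 0.30, adjusted p = 0.00065). Within BY005, the culture sampled at 120 min, they were 2.21 for TRM11, 2.40 for TRM1 and 1.76 for TRM2, so the order of TRM11 and TRM1 is not settled. By class, 13 of 16 methyltransferase genes, 4 of 5 pseudouridine synthase genes, all 3 dihydrouridine synthase genes and all 4 elongator genes were called higher at 120 than at 24 min. Of the 16 methyltransferase genes, 0 had a fitted change below 0.

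At 120 min the deaminase genes had not shared this return. From 24 to 120 min 0 of 3 were called in either direction (limma, 0 also at an unadjusted p under 0.05). TRM12 and MOD5 were not called in that comparison either (0 of 2), which does not show a lack of return. TRM12 rose by 0.30 within BY005, and MOD5 had not fallen at 24 min (0.11). TAD2 was higher in between, reading 9.10 at 24 min, 9.83 at 56 min and 9.08 at 120 min in BY005. At 120 min TAD2 was still 2.37-fold below steady state (-1.25 ± 0.11, adjusted p = 1.8e-05) and TAD3 2.35-fold (-1.23 ± 0.12, adjusted p = 3.6e-05). PUS6 was the gene called lower from 24 to 120 min (-0.47 ± 0.10, adjusted p = 0.0058). Its course in BY005 reached 8.75 at 56 min and 8.97 at 120 min, below the 9.45 it had at 24 min.

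Other genes of tRNA modification changed less uniformly, though this list too was chosen with earlier results of these data known. Of 41 measured, 30 were called lower at 24 min and 7 higher, against 30.4% and 44.5% of all genes. Their median was -0.41 (0.60 with hybridisation-control scaling). The largest falls were those of KRE33 (-4.15 ± 0.13), an RNA acetyltransferase that also serves ribosome assembly, NCS2 (-3.43 ± 0.27), which takes part in thiolation of wobble uridine, RTT10 (-2.89 ± 0.12), a partner of TRM7, and KTI11 (-2.35 ± 0.09), a cofactor of elongator. The largest rises were those of MSS1 (0.63 ± 0.05), which modifies wobble uridine in mitochondria, NFS1 (0.51 ± 0.08), the mitochondrial cysteine desulfurase, QRI7 (0.34 ± 0.05), of mitochondrial threonylcarbamoyl modification, and UBA4 (0.32 ± 0.07), which activates the sulfur carrier Urm1.

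Among 22 genes of tRNA processing and export, 13 were called lower at 24 min and 3 higher, against 30.4% and 44.5% of all genes. Their median was -0.60 (0.41 with hybridisation-control scaling). TRZ1, the nuclease that trims the end of precursor tRNA, fell most (-3.87 ± 0.28), followed by LHP1 (-2.60 ± 0.11), which protects precursor ends, and by RPP1 (-2.00 ± 0.08) and POP6 (-1.98 ± 0.17), subunits of RNase P and RNase MRP. RPR2, a subunit of RNase P alone, rose (0.68 ± 0.16), as did the exportin gene MSN5 (0.24 ± 0.05) and POP7 (0.15 ± 0.04).

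Taken as whole lists, the set's median at 24 min lay between those of neighbouring steps of tRNA use and that of ribosome assembly. Cytosolic aminoacyl-tRNA synthetase genes had a median of -0.53 (0.48 with hybridisation-control scaling), with 17 of 20 called lower and 1 higher. Genes of RNA polymerase III and its factors had a median of -1.30, with 12 of 20 lower and 6 higher. That list was mixed. Its polymerase subunit genes all fell, from -1.28 (RPC37) to -3.09 (RPC17), a range that held the set's median of -1.97. The TFC genes and BRF1 lay between 0.03 (TFC6) and 0.26 (BRF1), with BDP1 at -0.42 and MAF1 at 0.85. Genes of the small-subunit processome, which starts ribosome assembly, had a median of -4.12, with 39 of 39 lower. Of all genes, 30.4% were called lower at 24 min and 44.5% higher. From 24 to 120 min the synthetase genes moved the other way from the set, at a median of -0.15, against 0.72 for the set. Of them, 2 were called higher and 8 lower, against 28.4% and 18.2% of all genes. The processome genes stood at a median of 2.03 with 35 higher. Medians of the remaining lists were above 0 too. They were 0.48 for RNA polymerase III (13 higher, 1 lower), 0.22 for tRNA processing (8 higher, 2 lower) and 0.17 for other modification genes (17 higher, 9 lower). Differences between the lists were not tested.

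**Figure D5:**
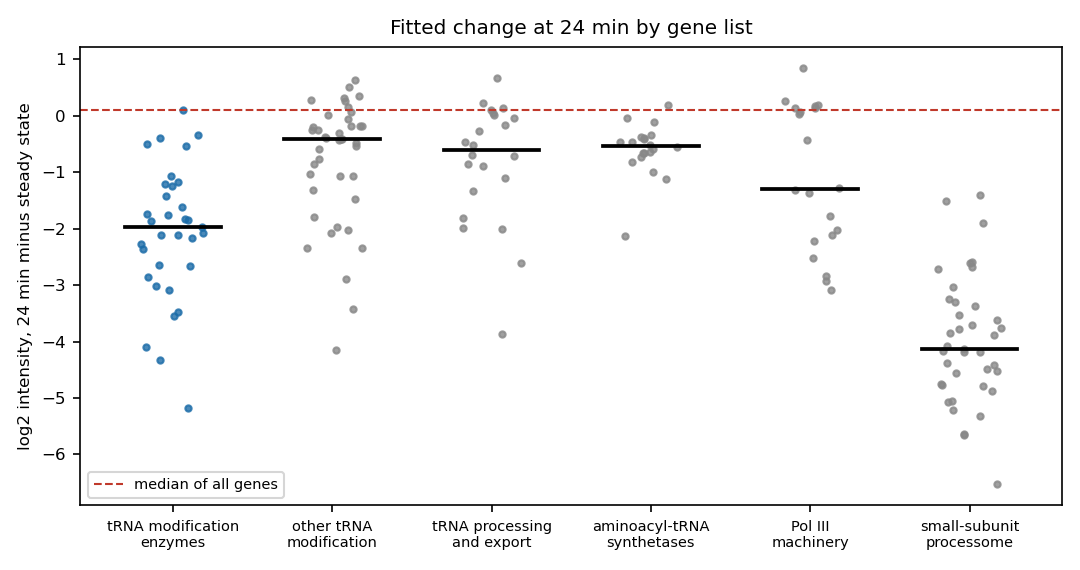
Fitted log2 change at 24 min against steady state, with 1 point for each gene, a black bar at each list's median and a dashed line at the median of all 5449 genes (0.11). The 33 tRNA modification genes, in blue, centre on -1.97, between the synthetases at -0.53 and the processome at -4.12; with hybridisation-control scaling the medians of the synthetases and of the other modification and processing genes are positive.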

How the data were processed

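Total RNA of 14 samples was labelled with biotin and read on Affymetrix arrays. Per the submitters' processing notes, the authors used affy and R 2.10.0; their deposited values are RMA intensities on a linear scale. Here log2 was taken and probe sets of 1 gene were averaged, giving 5449 genes from 5498 probe sets; each of the 33 genes had 1 probe set. Genes were named with a table of assembly R64. The test was limma's moderated fit (version 3.58.1, R 4.3.3) over all 14 arrays in 8 time groups, two-sided, with Benjamini-Hochberg adjustment over all genes; 6 residual and 2.43 prior degrees of freedom stood behind each test. The fit was tested on simulated data with known changes. Their noise was drawn independently for each array, so variation shared within a fermentation was not covered. The number of arrays limits the precision.

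The members, the lists and their classes were chosen with earlier results of these data known. Arrays of one fermentation come from the same culture, so the fermentation pairs them: deviations from the group means correlated with r of 0.43, 0.08 and 0.34 between 7 min and steady state, 0.53, 0.12 and 0.36 between 24 min and steady state, and 0.06, -0.16 and 0.41 between 24 and 7 min in BY005, BY006 and BY007. Between different fermentations r ran from -0.52 to 0.40. Alternatives were the fermentation as a block, quantile normalization of the genes alone, scaling on 27 hybridisation-control probe sets, leaving out dim genes, an intensity trend with robust variance, a fit of the compared arrays only and leaving out each array. All measured members may be named; values per array follow a rule on the largest and smallest changes of each class, on genes called at 7 min or under the background, and on partner subunits, and of other lists the 4 largest changes called in each direction are named. Array values of TRM1, TRM2, TRM12, TRM13 and MOD5 were added after the values were seen. A search of promoter sequence was planned and not run, since sequences were not used here.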

Additional observations from a re-analysis of the deposited data

How the results depend on the processing

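Leaving out each array in turn gave 32 genes called lower at 24 min every time, with a median from -2.04 to -1.91. The count at 7 min ranged from 0 to 7 lower with a median from -0.25 to -0.10, MOD5 at 56 min from 0 to 1 higher, and 24 to 56 min from 5 to 8 higher and 1 to 2 lower. With the fermentation as a replicate block 32 genes were called lower at 24 min, 0 higher at 56 min and 2 lower from 24 to 56 min; the block moved no other count of the set's adjusted calls by over 1.5 times. The intensity trend with robust variance also gave 2 lower in that last comparison. Quantile normalization of the genes alone gave medians of -0.24 at 7 min (33 of 33 below 0), -1.52 at 14 min, -1.37 at 120 min and 0.51 from 24 to 120 min, 1 gene called higher at 24 min and 1 from 7 to 24 min (MOD5), and 2 lower from 24 to 56 min and 3 from 24 to 120 min.

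Scaling on the hybridisation controls, which vary widely between replicates, left few calls. The counts lower were 0 at 10 min, 2 at 14, 5 at 24, 5 at 56 and 0 at 120 min, and 3 from 7 to 24 min. Of all 5449 genes, 0, 89, 130, 230 and 9 were called lower at these times, and 109 from 7 to 24 min. This scaling gave 0 of the set higher at 56 and 120 min, against 6 and 9 of all genes. From 24 to 56 and from 24 to 120 min it gave 0 of the set in either direction. Of all genes 58 and 1 were lower there, and 0 higher. The medians were -0.77 at 3 min, 0.0694 at 7, -1.29 at 10, -2.55 at 14, -0.96 at 24, -2.76 at 56 and -1.52 at 120 min, with -0.96 from 7 to 24 min, -1.87 from 24 to 56 min, -0.59 from 24 to 120 min and 1.67 from 14 to 24 min. At 24 min TAD1 (0.67), PUS6 (0.63), TRM12 (0.51) and ELP4 (0.48) turned positive. The list medians turned to 0.19 at 7 min, 0.60 at 24 min and 0.37 from 7 to 24 min for other modification genes, to 0.16, 0.41 and 0.25 for tRNA processing, to 0.22, 0.48 and 0.30 for the synthetases, and to 0.14 at 7 min for RNA polymerase III. The cause of these shifts was not tested. The limits of signal touch TRM11 and DUS3 near the background, where falls may be understated.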
